A study of Mus musculus with 64 samples.

Results

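Macrophages are the main immune cells of the resting heart, and 10 genes that mark them were followed across 64 hearts. They are Lyve1, Cd163 and Mrc1 (receptors of resident macrophages), Cd68 and Csf1r (general macrophage genes), C1qa, C1qb and C1qc (complement C1q), Cx3cr1 and Ccr2 (chemokine receptors). The genes were listed by name, with earlier results of these data known. All 10 were among the 16913 genes of the table, and every library held at least 48 reads of each. Hearts came from C57BL/6J mice that were non-transgenic (nTG) or transgenic (TG) for cTnT-delta160E, a form of the cardiac troponin T protein used to model hypertrophic cardiomyopathy. Mice stayed sedentary (Sed) or did high-intensity interval training (HIIT) on a treadmill for 6 weeks, on 3 days a week, in sessions of 31 minutes that held 4 fast intervals (85% of the mean speed in an exercise test) and 4 slow ones (50%). Among males (M), there were 7 nTG Sed, 9 TG Sed, 8 nTG HIIT and 8 TG HIIT mice. Among females (F), there were 8 nTG Sed, 8 TG Sed, 10 nTG HIIT and 6 TG HIIT mice. These numbers come from the sample labels, while the series' design text gives 7 to 9 a group, a range outside which both trained female groups fall. Age and the promoter that drives the transgene are not given in the sources used here.

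Heart macrophages form populations that are kept up in different ways. Resident cells, marked by LYVE1 and CD163, largely renew themselves within the tissue, while cells with the receptor CCR2 are replenished from blood monocytes, which follow the chemokines CCL2, CCL7 and CCL12. CSF1R, the receptor for CSF1 and IL34, keeps macrophages alive. CX3CR1 binds CX3CL1 and is found on monocytes and on many tissue macrophages. C1q starts the classical complement pathway and is made largely by macrophages, as 3 chains encoded side by side. CD68 is a lysosomal glycoprotein, MRC1 the mannose receptor, CD163 the scavenger receptor for haemoglobin bound to haptoglobin, and LYVE1 a hyaluronan receptor that lymphatic endothelium also carries.

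The names of the gene columns went against sex-linked genes and Tnnt2 in many libraries, so a gene column's group was not taken from its name. Each was joined to the long non-coding RNA (lncRNA) column of best correlation and took that column's label, an assignment from measured values that no label states and that was chosen with earlier results of these data known. Over 389 transcripts found in both tables, all 64 pairs were each other's best match, with Pearson's r between 0.60 and 0.86, while the next best column reached at most 0.40. Joined this way, 0 libraries contradicted their labels for sex or genotype, against 45 when columns were taken by name. Training has no such check gene, so the Sed and HIIT labels rest on the names of the lncRNA columns alone. Tnnt2, the gene of the transgene's protein, had 2665 to 3428 CPM (counts scaled to library size) in the 33 nTG libraries and 6903 to 12000 in the 31 TG libraries. Every result below rests on this join, since columns taken by name gave 0 members called in each comparison of TG with nTG. Gene totals ran from 34.6 to 67.1 megacounts per library.

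In GRCm38, C1qa, C1qc and C1qb lie one after another on the minus strand of chromosome 4, at 136895917 to 136898803, 136889804 to 136893065 and 136880129 to 136886187. RefSeq sequences (GRCm38.p6) of the 250 bases before the annotated start were used for 7 of the 10 members. Windows of Lyve1, C1qa and Csf1r were not searched, so the count below does not cover them. The 7 sequences were searched on both strands for GAGGAA, which reads TTCCTC on the other strand. GAGGAA is a core of the sites that the macrophage factor PU.1 (gene Spi1) can bind. It occurred in 4 of the 7 (Cd68, Mrc1, C1qb and C1qc) and in 23.3% of 32851 mouse promoter windows of the same length. A match is a string of letters in the window and does not show that the factor binds there. The windows of C1qb (chr4:136886201-136886450, minus strand), Cd68 (chr11:69666171-69666420, minus strand) and Mrc1 (chr2:14229164-14229413, plus strand) are shown because these genes varied together between hearts, as reported below. That of Cd163 (chr6:124304401-124304650, plus strand) is shown as a resident marker for comparison. Capitals mark GAGGAA or TTCCTC.
C1qb: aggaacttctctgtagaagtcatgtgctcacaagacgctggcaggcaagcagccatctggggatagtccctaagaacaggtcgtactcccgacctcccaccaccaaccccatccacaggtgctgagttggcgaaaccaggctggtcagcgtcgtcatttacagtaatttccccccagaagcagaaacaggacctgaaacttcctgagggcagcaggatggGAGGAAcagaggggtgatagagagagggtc
Cd68: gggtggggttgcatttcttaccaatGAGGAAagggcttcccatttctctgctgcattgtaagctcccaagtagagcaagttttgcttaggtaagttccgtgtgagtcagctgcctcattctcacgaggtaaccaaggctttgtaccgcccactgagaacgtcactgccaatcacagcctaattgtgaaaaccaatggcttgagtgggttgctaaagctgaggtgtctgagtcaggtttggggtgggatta
Mrc1: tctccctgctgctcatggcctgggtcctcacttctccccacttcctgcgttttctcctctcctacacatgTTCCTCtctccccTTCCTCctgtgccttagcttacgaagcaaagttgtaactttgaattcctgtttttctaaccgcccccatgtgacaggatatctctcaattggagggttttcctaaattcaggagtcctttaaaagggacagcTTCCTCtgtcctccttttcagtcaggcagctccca
Cd163: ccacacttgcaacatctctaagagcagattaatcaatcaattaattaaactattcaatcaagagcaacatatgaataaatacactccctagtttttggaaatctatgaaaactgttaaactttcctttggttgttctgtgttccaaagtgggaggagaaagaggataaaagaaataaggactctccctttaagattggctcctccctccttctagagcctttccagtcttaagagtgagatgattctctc
The C1qb and Cd68 windows each hold 1 match, on the printed strand, and the Mrc1 window holds 3, all on the other strand. The windows of Cd163, Ccr2 and Cx3cr1 hold none of these letters. The RefSeq starts differ from the gene positions used here (GENCODE M21). By those positions, the windows of C1qc, Ccr2 and Mrc1 lie partly within the gene, and that of Cx3cr1 wholly. The windows are thus not all alike in position.

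Levels between genes can be compared only per length, as CPM per kilobase of exon. C1qa had the highest median over the 64 libraries, with 40.6 CPM per kilobase, followed by C1qb with 34.8 and C1qc with 19.8. Csf1r (9.70), Cd68 (6.47), Mrc1 (6.03) and Lyve1 (5.87) formed a middle range. Cd163 had 3.17, Cx3cr1 1.11 and Ccr2 0.315 CPM per kilobase. The resident markers thus stood above the recruited marker in length-scaled level. The spread between mice of 1 group, as a coefficient of variation, was 13.5% for Csf1r and 31.1% for Ccr2, which had 48 to 265 counts per library. Exons of Csf1r overlap those of Hmgxb3 on the other strand, and exons of Cx3cr1 those of Gm33858, and the strand setting of the counting is not given in the sources used here, so reads of each pair cannot be told apart. The other 8 members share no exon bases with another annotated gene.

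All 10 macrophage markers were higher in TG than in nTG hearts when the effect was averaged over both sexes and both training states. This comparison asks what the troponin variant does in general. Of all 16913 genes, 39% passed the test (edgeR's quasi-likelihood test, Benjamini-Hochberg adjusted p under 0.05 over all genes), 18.5% as higher. The members' median log2 fold change was 0.39, and the median over all genes was 0.01. Mrc1 rose most, by 0.45 ± 0.05 (SE) on the log2 scale (adjusted p = 4.94e-11), and Cd163 least, by 0.22 ± 0.06 (adjusted p = 0.00454). The C1q chains rose by 0.38 ± 0.06 (C1qa), 0.42 ± 0.06 (C1qb) and 0.38 ± 0.06 (C1qc). Csf1r rose by 0.38 ± 0.05, Cd68 by 0.41 ± 0.07, Lyve1 by 0.40 ± 0.08 and Cx3cr1 by 0.39 ± 0.10. Ccr2, the recruited marker, rose by 0.30 ± 0.11 (adjusted p = 0.0204). In whole hearts, more macrophages and more RNA of these genes per cell cannot be told apart. All 10 calls held with each of the 64 libraries left out in turn.

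In sedentary males, 9 of 10 members rose, and Ccr2 missed the threshold. Over all genes, 20.6% passed in this comparison and 9.39% were higher. The members' log2 fold changes ran from 0.37 to 0.85, with a median of 0.66 against -0.01 over all genes. The plot of the markers by library shows each value.

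Among the resident markers, Lyve1 had 9.76, 11.4 and 14.6 CPM as lowest, median and highest value in nTG Sed M, and 12.9, 18.99 and 27.2 CPM in TG Sed M. It rose by 0.75 ± 0.15 on the log2 scale (adjusted p = 0.000264), and 8 of 9 TG hearts lay above every nTG heart. Cd163 had 11.9, 15.1 and 19.3 CPM in nTG Sed M and 14.5, 19.8 and 23.9 CPM in TG Sed M. Here the groups overlapped more, with 5 of 9 TG hearts above every nTG heart, and the rise was 0.37 ± 0.13 (adjusted p = 0.0299). That call was lost when any 1 of 4 libraries was left out (nTG Sed M 1, 3 or 7, or TG Sed M 9), with log2 fold changes from 0.32 to 0.45 over all 16 such fits. Mrc1 had 24.4, 30.5 and 44.1 CPM in nTG Sed M and 35.6, 46.4 and 55.8 CPM in TG Sed M, a rise of 0.57 ± 0.10 (adjusted p = 3.8e-05).

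Of the general markers, Cd68 showed the largest rise of all members in sedentary males, 0.85 ± 0.14 (adjusted p = 1.15e-05). It had 5.07, 6.87 and 8.35 CPM in nTG Sed M and 7.51, 11.5 and 15.9 CPM in TG Sed M, so 8 of 9 TG hearts exceeded every nTG heart. Csf1r had 44.3, 52.3 and 58.1 CPM in nTG Sed M and 57.9, 81.3 and 93.5 CPM in TG Sed M, a rise of 0.62 ± 0.09 (adjusted p = 2.59e-06). The complement chains moved by similar amounts. C1qb had 24.96, 28.6 and 35.3 CPM in nTG Sed M and 32.7, 53.5 and 62.98 CPM in TG Sed M, and rose by 0.80 ± 0.13 (adjusted p = 7.33e-06). C1qa rose by 0.72 ± 0.12 (adjusted p = 1.2e-05) and C1qc by 0.69 ± 0.11 (adjusted p = 9.74e-06). For C1qa, C1qb, C1qc and Csf1r alike, 8 of 9 TG hearts lay above every nTG heart. TG Sed M 8 was the lowest of its group in 8 of the 10 members. TG Sed M 5, the heart of its group with the highest sum of red blood cell genes (4603 CPM, 290 to 1150 in the other 8), was the highest in 4. Without it, 9 members rose, Cd68 by 0.80 and C1qb by 0.76.

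**Figure D1:**
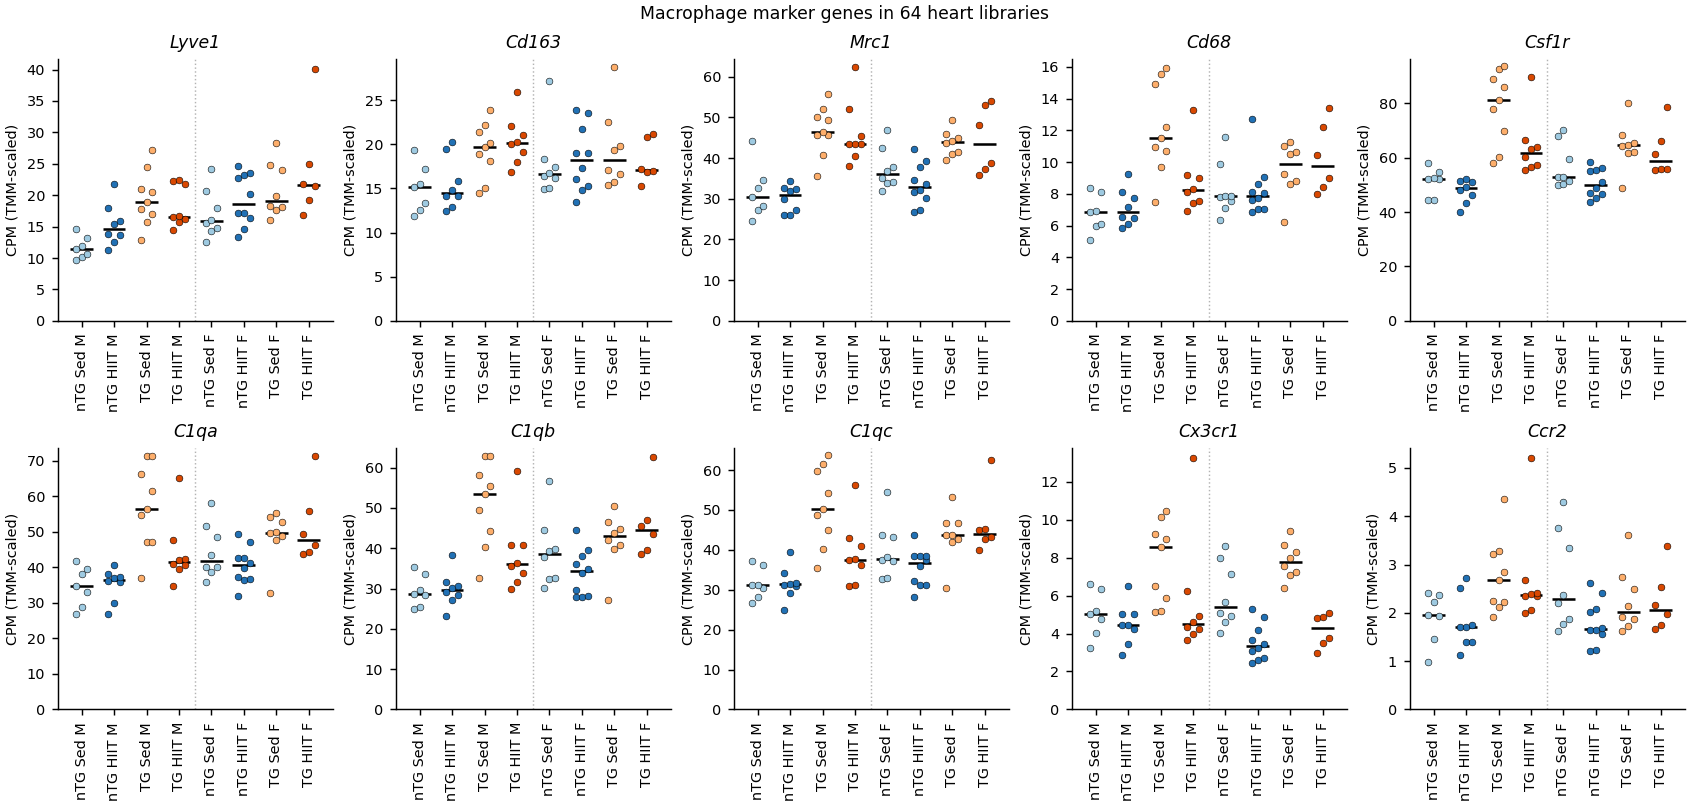
TMM-scaled CPM of the 10 genes (vertical axes, from 0) in each of 64 hearts (points) by group, with the group median as a line. Of 9 TG Sed M hearts, 8 lie above all nTG Sed M hearts for Lyve1, Cd68, Csf1r and the C1q chains, and TG HIIT M holds a single high heart in several panels.

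The chemokine receptors were lower in level and more variable. Cx3cr1 had 3.22, 5.01 and 6.62 CPM in nTG Sed M and 5.11, 8.57 and 10.5 CPM in TG Sed M, a rise of 0.64 ± 0.20 (adjusted p = 0.0136). Ccr2 had 0.989, 1.95 and 2.42 CPM in nTG Sed M and 1.91, 2.67 and 4.35 CPM in TG Sed M, where 5 of 9 TG hearts exceeded every nTG heart. Its log2 fold change of 0.54 ± 0.21 missed the threshold (adjusted p = 0.0615). Markers of other cells passed in the same comparison. Of 5 fibroblast genes 4 rose, among them Col1a1 by 0.63 ± 0.16 (adjusted p = 0.00252), and 3 of 5 cardiomyocyte genes fell (Myh6, Tnni3 and Pln). The T cell gene Cd3e (0.78 ± 0.27, adjusted p = 0.0308), Pdpn of the lymphatic list and Wt1 of the mesothelial list rose, and Prox1 of the lymphatic list fell. The part of these shifts in the members' result was not tested.

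In trained males, 4 of 10 members were higher in TG hearts (Cd163, Mrc1, C1qb and Csf1r), where 14% of all genes passed and 5.65% were higher. Mrc1 had 25.97, 30.95 and 34.3 CPM in nTG HIIT M and 38.1, 43.5 and 62.4 CPM in TG HIIT M. The groups did not overlap, and Mrc1 rose by 0.62 ± 0.10 (adjusted p = 1.18e-05). Csf1r had 40.1, 48.8 and 52.2 CPM in nTG HIIT M and 55.3, 61.5 and 89.6 CPM in TG HIIT M, again without overlap, a rise of 0.42 ± 0.09 (adjusted p = 0.00102). Cd163 rose by 0.40 ± 0.13 (adjusted p = 0.0233) and C1qb by 0.37 ± 0.13 (adjusted p = 0.0428). With 1 library left out in turn, the call of C1qb was lost in 9 of 16 fits (nTG HIIT M 2, 4, 5, 6, 7 or 8, or TG HIIT M 1, 4 or 6), with log2 fold changes from 0.25 to 0.43. That of Cd163 was lost in 2 (nTG HIIT M 2 or TG HIIT M 2). Ccr2 at 0.58 ± 0.21 (adjusted p = 0.0538), C1qa at 0.33 ± 0.12 (adjusted p = 0.0509) and C1qc at 0.31 ± 0.11 (adjusted p = 0.0539) missed the threshold. So did Cd68 at 0.28 ± 0.14, Lyve1 at 0.26 ± 0.15 and Cx3cr1 at 0.33 ± 0.19. The count depends on single hearts and on the test. It ran from 2 to 7 with 1 library left out: 2 without nTG HIIT M 2, 7 without nTG HIIT M 1 or TG HIIT M 3, and 3 without TG HIIT M 4, the highest heart. DESeq2 called 7. All 5 genes of the red blood cell list were lower in TG than in nTG trained males, with summed levels of 259.6 to 554 CPM against 573 to 1112 CPM. Of 5 fibroblast genes 3 rose, with sums of 505.4 to 943 CPM against 400.2 to 540.5 CPM. Cdh5 (endothelial) fell and Mcpt4 (mast cell) rose. The part of these shifts in the result was not tested.

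In sedentary females, 0 of 10 members passed the test in edgeR, with 1 at an unadjusted p under 0.05 (Mrc1), and 4.37% of all genes passed. DESeq2 also called 0 members, and limma voom 1. The members' median log2 fold change was 0.16, 9 of the 10 were positive, and Ccr2 was at -0.23 ± 0.21 (adjusted p = 0.647). Mrc1 had 31.9, 36.04 and 46.9 CPM in nTG Sed F and 39.6, 43.96 and 49.5 CPM in TG Sed F, a log2 fold change of 0.23 ± 0.10 (adjusted p = 0.215). C1qb had 30.1, 38.5 and 56.8 CPM in nTG Sed F and 27.1, 42.95 and 50.4 CPM in TG Sed F, so the groups overlapped throughout. Cx3cr1 was at 0.38 ± 0.19, Lyve1 at 0.29 ± 0.15, Cd68 at 0.21 ± 0.14, Csf1r at 0.18 ± 0.09 and Cd163 at 0.12 ± 0.13. The C1q chains were at 0.13 ± 0.12 (C1qa), 0.10 ± 0.13 (C1qb) and 0.13 ± 0.11 (C1qc). The fibroblast genes summed to 566.7 to 733.3 CPM in TG Sed F and 463.2 to 761.1 CPM in nTG Sed F.

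In trained females, 5 of 10 members were higher in TG hearts, against 14.8% of all genes passing and 5.37% higher. Mrc1 had 26.7, 32.9 and 42.2 CPM in nTG HIIT F and 35.8, 43.4 and 54.1 CPM in TG HIIT F, and rose by 0.41 ± 0.10 (adjusted p = 0.00398). The C1q chains rose by 0.35 ± 0.12 (C1qa, adjusted p = 0.0372), 0.44 ± 0.13 (C1qb, adjusted p = 0.015) and 0.38 ± 0.11 (C1qc, adjusted p = 0.0159). Csf1r rose by 0.29 ± 0.10 (adjusted p = 0.0284). Cd163, a resident marker, had a log2 fold change of -0.03 ± 0.13. Lyve1 at 0.32 ± 0.15, Cd68 at 0.31 ± 0.14, Ccr2 at 0.31 ± 0.22 and Cx3cr1 at 0.23 ± 0.20 did not pass either. A single heart, TG HIIT F 3, was far above its group in Lyve1, C1qb and C1qc. With 1 library left out in turn, the call of C1qa was lost in 6 of 16 fits and that of Csf1r in 3. Without TG HIIT F 3, 1 member (Mrc1, 0.36, adjusted p = 0.0192) passed, and C1qb was at 0.34 (adjusted p = 0.0832). The count was 3 without TG HIIT F 2 and 3 without nTG HIIT F 9. Of 5 fibroblast genes 3 rose as well (565 to 711.1 CPM summed in TG HIIT F, 454.4 to 569.5 in nTG HIIT F) and 2 of 5 cardiomyocyte genes fell. The red blood cell genes summed to a median of 411.6 CPM (343.7 to 610.1) in TG HIIT F. In nTG HIIT F the median was 688 CPM (576.3 to 800), and no gene of that list passed. Wt1 of the mesothelial list rose by 0.55 ± 0.14 (adjusted p = 0.00624), while Prox1 of the lymphatic list fell by 0.17 ± 0.06 (adjusted p = 0.0444) and S100a9 of the neutrophil list by 1.67 ± 0.56 (adjusted p = 0.0321). The part of these shifts in the result was not tested.

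**Figure D2:**
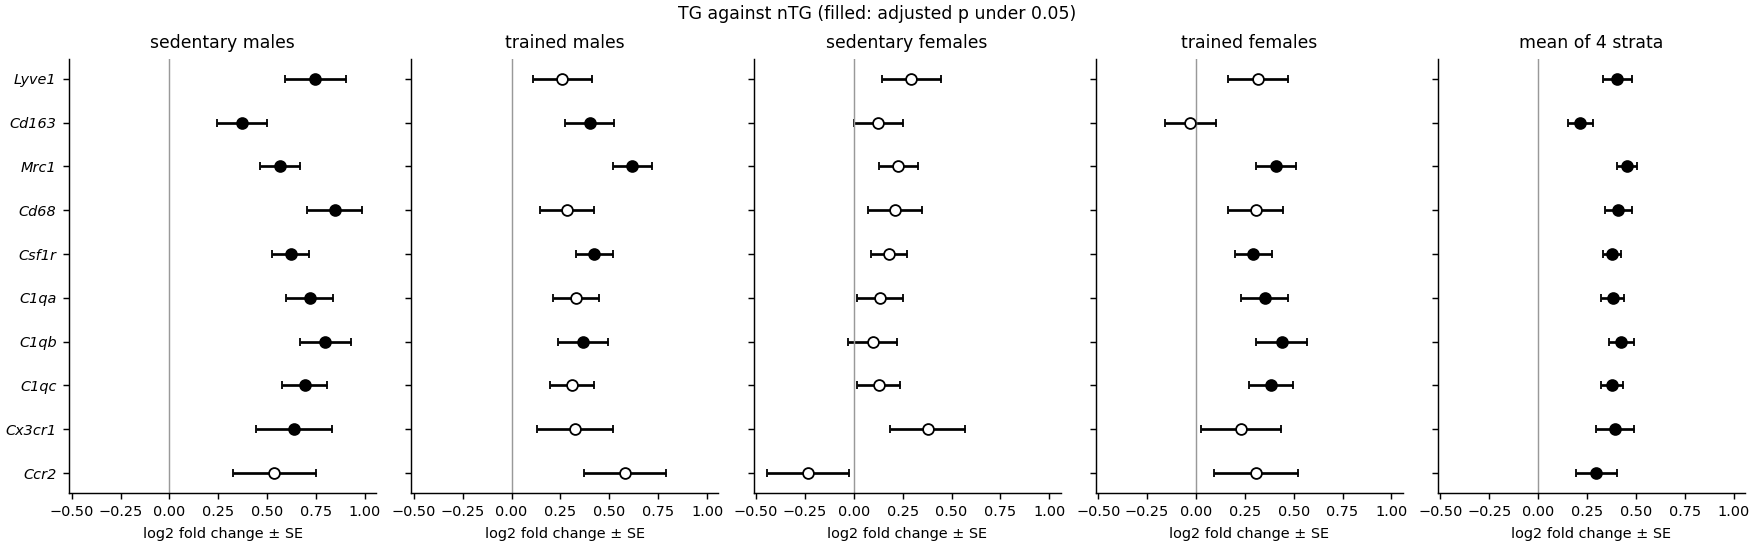
Log2 fold change of TG against nTG (horizontal axis, bars are ± 1 SE) for the 10 genes in the 4 combinations of sex and training and in their mean. Filled points passed at an adjusted p under 0.05: 9 and 4 genes in sedentary and trained males, 0 and 5 in sedentary and trained females, and 10 in the mean.

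These 4 counts do not show that the sexes or training states differ, so the differences were tested. Between sedentary females and males, the TG effect was smaller in females for all 10 members, by 0.25 to 0.77 on the log2 scale, and 8 of 10 had an unadjusted p under 0.05. The difference was -0.70 ± 0.18 for C1qb (adjusted p = 0.377) and -0.77 ± 0.30 for Ccr2 (adjusted p = 0.501). No member passed in edgeR, DESeq2 or limma voom, and edgeR called 0 of all genes, with 1471 at an unadjusted p under 0.05. Between trained and sedentary males, the TG effect of Cd68 differed by -0.56 ± 0.20 (adjusted p = 0.197) and that of C1qb by -0.43 ± 0.18 (adjusted p = 0.254). There, edgeR and DESeq2 called 0 members and limma voom 1, and 5 members had an unadjusted p under 0.05, beside 2503 of all genes. Between trained and sedentary females, 0 members passed in any of the 3 tools, and 0 had an unadjusted p under 0.05. Over all genes, 0 passed in each tool there, with 1093 at an unadjusted p under 0.05 in edgeR.

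In TG males, 5 of 10 members were lower after training: Cd68, Csf1r and the 3 C1q chains. This comparison asks what interval training does in hearts with the variant, and it shares the TG Sed M hearts with the comparison of genotypes above. Of all genes, 18% passed and 7.6% were lower. Cd68 had 6.94, 8.22 and 13.3 CPM in TG HIIT M, beside the 7.51, 11.5 and 15.9 CPM of TG Sed M given above. It fell by 0.48 ± 0.13 on the log2 scale (adjusted p = 0.0103), and 7 of 8 trained hearts lay below the sedentary median. C1qb had 29.9, 36.02 and 59.1 CPM in TG HIIT M and fell by 0.41 ± 0.12 (adjusted p = 0.0161). C1qc fell by 0.38 ± 0.11 (adjusted p = 0.0121), C1qa by 0.37 ± 0.11 (adjusted p = 0.019) and Csf1r by 0.30 ± 0.09 (adjusted p = 0.0167). The groups overlapped for each of the 5 genes.

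The resident receptors and Ccr2 did not pass in the same hearts. Lyve1 was at -0.10 ± 0.14, Cd163 at 0.08 ± 0.12, Mrc1 at -0.02 ± 0.10 and Ccr2 at -0.05 ± 0.20. The trained heart TG HIIT M 4 was the highest of its group in 8 of 10 members. Without it, 6 members fell, and the decrease of C1qb was 0.54 in place of 0.41. A fit of only the groups compared called 3 members, with C1qa (adjusted p = 0.0506) and Csf1r (adjusted p = 0.0571) just missing the threshold. Markers of other cells moved in the same comparison. The 5 genes of the red blood cell list were lower in trained than in sedentary TG males (a median sum of 384 CPM, 259.6 to 554, against 546.9 CPM). The highest sum in TG Sed M, 4603 CPM, was that of TG Sed M 5, and the other 8 hearts had 290 to 1150 CPM. Without TG Sed M 5, the same 5 members fell. Of 5 fibroblast genes 2 fell (Col1a1 and Tcf21), with a median sum of 570.6 CPM (505.4 to 943) in TG HIIT M against 693.5 CPM (492.7 to 780.9) in TG Sed M. Of 5 cardiomyocyte genes 2 rose (Ryr2 and Pln), with a median sum of 51700 CPM (39770 to 55440) against 45630 CPM (43880 to 53160). Cdh5 (endothelial) and Pdgfrb (mural) fell. The part of these shifts in the members' result was not tested.

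In the other 3 strata, 0 members passed for training in edgeR, with 1 (Lyve1, nTG males), 1 (Cx3cr1, TG females) and 2 (Ccr2 and Cx3cr1, nTG females) at an unadjusted p under 0.05. In nTG males, edgeR called 0 of all genes (999 at an unadjusted p under 0.05) and DESeq2 4, none of them a member. In TG females, edgeR and DESeq2 called 0 genes (606 at an unadjusted p under 0.05 in edgeR). In nTG females, edgeR called 25 genes, or 0.148%, and DESeq2 95. No member was among them, though DESeq2 gave no adjusted p for 5 members (Cd68, Lyve1, Cd163, Ccr2 and Cx3cr1). limma voom called 1 member (Cx3cr1) in each female stratum and 0 in nTG males. The difference of the training effect between TG females and TG males was tested too. No member passed in edgeR or in DESeq2, which gave no adjusted p for Ccr2. In edgeR 4 had an unadjusted p under 0.05, and the closest was C1qb at 0.55 ± 0.18 (adjusted p = 0.112). Over all genes, edgeR called 0 in this test, with 3063 at an unadjusted p under 0.05. Without TG HIIT M 4, 4 members passed that test, and limma voom called 3.

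Cx3cr1, the fractalkine receptor, had its lowest group medians in trained females of both genotypes, though that of TG HIIT F (4.31 CPM) was close to those of nTG HIIT M (4.44) and TG HIIT M (4.48), and these 3 groups overlapped. In nTG HIIT F it had 2.44, 3.36 and 5.27 CPM, against 4.04, 5.37 and 8.61 CPM in nTG Sed F, and all 10 trained hearts lay below the sedentary median. In TG HIIT F it had 2.95, 4.31 and 5.06 CPM, against 6.39, 7.76 and 9.41 CPM in TG Sed F. These TG groups did not overlap: all 6 trained hearts lay below all 8 sedentary hearts. The log2 fold change was -0.91 ± 0.21 in TG females (p = 6.66e-05 and adjusted p = 0.361 over all genes in edgeR) and -0.76 ± 0.18 in nTG females (adjusted p = 0.0592). Neither passed after adjustment over all genes in edgeR, and the tools differed. Limma voom called Cx3cr1 in TG females (adjusted p = 0.0174) and in nTG females (adjusted p = 0.0373), and an edgeR fit of only the groups compared called it in TG females (adjusted p = 0.0109) and not in nTG females (adjusted p = 0.138). DESeq2 did not call it in TG females (adjusted p = 0.163) and gave no adjusted p in nTG females. Over all these alternatives with joined columns, its adjusted p in TG females ran up to 0.624. In TG males it was -0.47 ± 0.19 (adjusted p = 0.0708), with 6 of 8 trained hearts below every sedentary heart, and in nTG males -0.16 ± 0.20 (adjusted p = 0.97).

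Averaged over both genotypes and sexes, a comparison added after the data had been seen, Cx3cr1 fell with training by 0.57 ± 0.10 on the log2 scale (adjusted p = 0.000602). Of all genes, 3.98% passed and 1.63% were lower. Csf1r was the only other member to pass in that fit, at -0.15 ± 0.05 (adjusted p = 0.0465), and this call was lost in 39 of the 64 fits that left out 1 library. Cx3cr1 passed in all 64, with log2 fold changes from -0.65 to -0.55. With columns taken by name, 9 members passed as higher in place of 2 as lower, so the direction rests on the join. Cx3cl1, which encodes the ligand of CX3CR1, fell by 0.16 ± 0.04 in the same mean (adjusted p = 0.0208). By stratum it fell in TG males, by 0.36 ± 0.08 (adjusted p = 0.00267), and was at -0.04 ± 0.09 in nTG males, -0.14 ± 0.09 in TG females and -0.11 ± 0.08 in nTG females. The difference of its training effect between TG and nTG males, -0.32 ± 0.12, did not pass (adjusted p = 0.209).

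**Figure D3:**
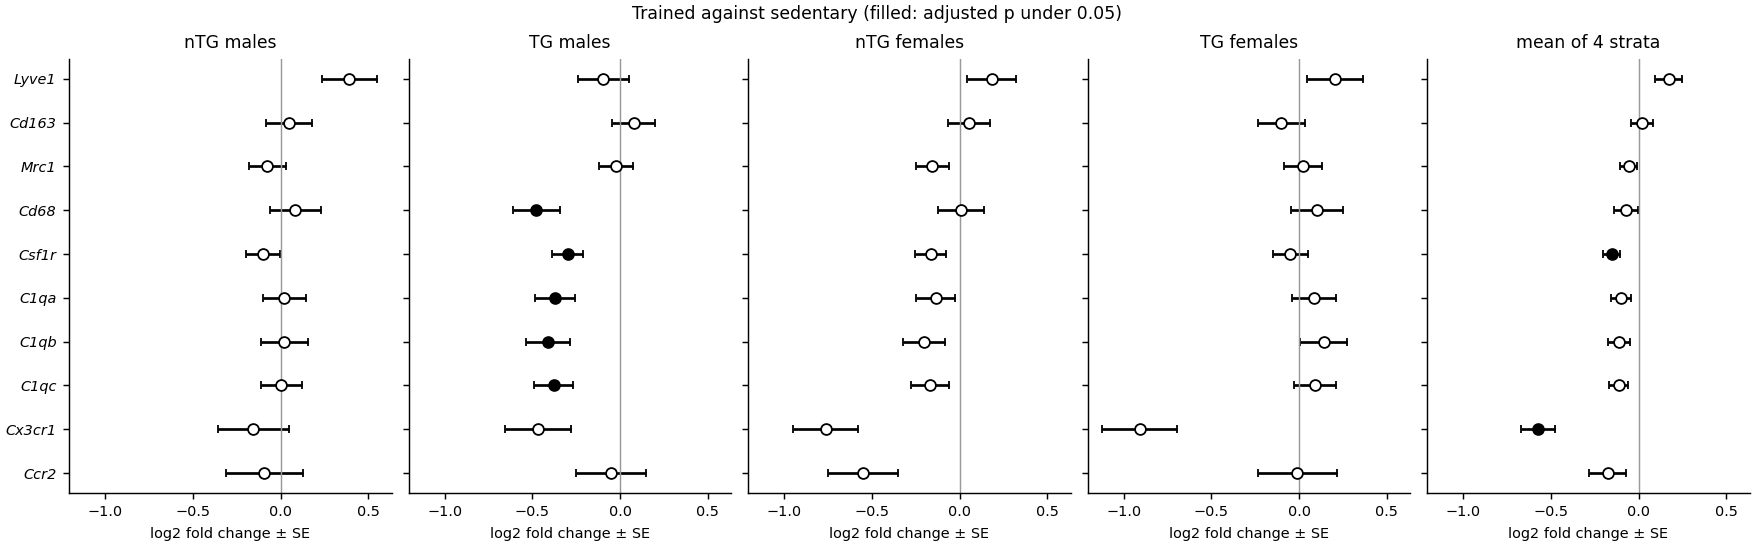
Log2 fold change of trained against sedentary hearts (horizontal axis, bars are ± 1 SE) for the 10 genes in 4 strata and in their mean. Filled points passed at an adjusted p under 0.05: Cd68, Csf1r and the C1q chains in TG males, and Csf1r and Cx3cr1 in the mean, with Cx3cr1 at -0.91 in TG females left unfilled.

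In sedentary nTG mice, females had more Lyve1 than males. The values were 12.6, 15.8 and 24.1 CPM in females, against 9.76, 11.4 and 14.6 CPM in males, and all 8 female hearts lay above the male median. Lyve1 was higher by 0.55 ± 0.16 on the log2 scale (adjusted p = 0.0439), where 2.22% of all genes passed and 0.846% were higher. The call was lost in 11 of 15 fits that left out 1 library, with log2 fold changes from 0.46 to 0.62. The other 9 members had positive log2 fold changes, from 0.15 (Csf1r) to 0.48 (Ccr2), and did not pass.

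Resident and recruited markers were then set side by side as a ratio of CPM within each heart. The lowest, median and highest ratio of Lyve1 to Ccr2 was 4.03, 5.34 and 10.7 in nTG Sed M and 4.72, 7.38 and 11.03 in TG Sed M. With training it was 6.47, 8.37 and 11.4 in nTG HIIT M and 4.29, 7.04 and 10.96 in TG HIIT M. All 4 male groups overlapped. In females the medians were 7.39 in nTG Sed F, 9.52 in TG Sed F, 10.5 in nTG HIIT F and 10.01 in TG HIIT F, within a range of 4.28 to 23.0 over these 4 groups. The ratio of Cd163 to Ccr2 had medians from 6.95 (nTG Sed M) to 10.9 (nTG HIIT F), and its groups overlapped too. The ratios are a description without a test. Both kinds of marker were higher in TG hearts in the averaged comparison, at 0.40 for Lyve1, 0.22 for Cd163 and 0.30 for Ccr2 on the log2 scale.

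**Figure D4:**
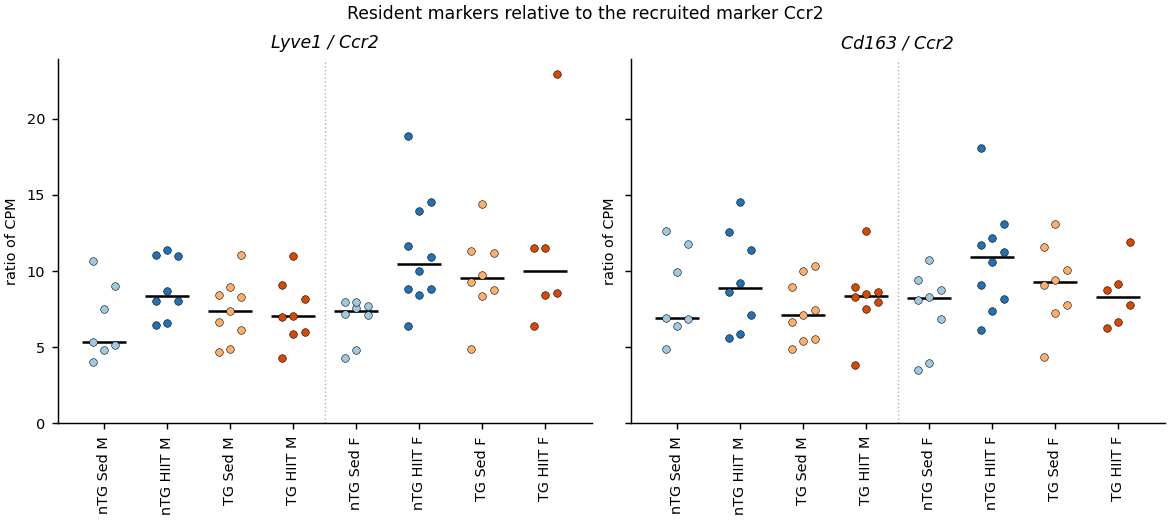
Ratio of CPM of Lyve1 to Ccr2 (left) and of Cd163 to Ccr2 (right), on vertical axes from 0, in each of 64 hearts by group, with the group median as a line. The groups overlap in both panels, and the highest Lyve1 to Ccr2 ratio, 23.0, is a TG HIIT F heart.

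Within groups, most members rose and fell together from heart to heart. Over 64 libraries with group means removed, Pearson's r of log2 CPM for the 45 pairs ran from -0.19 to 0.96, with a median of 0.49. By permutation within groups, 41 pairs passed at a Benjamini-Hochberg adjusted p under 0.05 over the 45. The share of passing pairs among other genes was not computed. The count thus does not show that these genes vary together more than others do. The tightest pair was C1qb with C1qc, where r was 0.957, Spearman's rho 0.933 and r without the 2 farthest hearts 0.947. Its permutation p of 1e-05 was the smallest that 100000 permutations can give (adjusted p = 2.2e-05). Csf1r followed C1qa with r = 0.903, rho = 0.899 and r = 0.879 without the 2 farthest hearts. Among Cd68, Mrc1, Csf1r and the C1q chains, r ran from 0.54 to 0.96 over 15 pairs.

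Of the resident pair, Lyve1 had r from 0.455 (Cd68) to 0.601 (Mrc1) with these 6 genes, which overlaps the range among them. Cd163 had r from 0.0495 (Cd68) to 0.454 (Csf1r) with them, and the difference between these ranges was not tested. Lyve1 with Cd163 gave r = 0.53, rho = 0.502 and r = 0.562 without the 2 farthest hearts (permutation p = 6.0e-05, adjusted p = 1.2e-04). Cd163 with Cx3cr1 gave r = -0.193 and rho = -0.225 (permutation p = 0.129, adjusted p = 0.138), and r = -0.163 without the 2 farthest hearts. Cd163 with Ccr2 gave r = 0.0881 and rho = 0.0594 (permutation p = 0.516, adjusted p = 0.528), and r = 0.0267 without the 2 farthest hearts. Ccr2 with C1qb gave r = 0.536, rho = 0.466 and r = 0.457 without the 2 farthest hearts (permutation p = 1e-05). Counting noise is larger for Ccr2 and Cx3cr1, which have the fewest reads, and its part in their lower correlations was not tested.

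**Figure D5:**
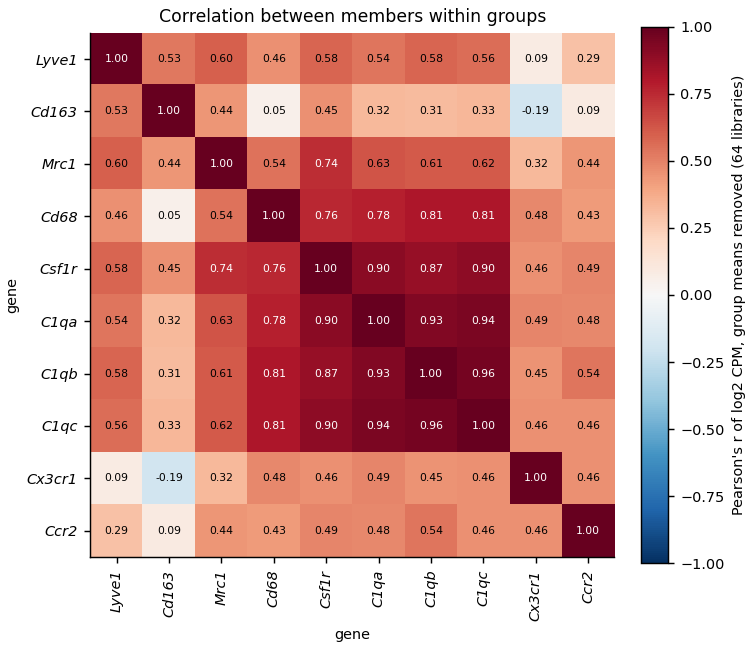
Pearson's r between the members' log2 CPM over 64 hearts after group means were removed, from -1 (blue) to 1 (red), with each value printed. The C1q chains and Csf1r form the reddest block (0.87 to 0.96), while Cd163 is near 0 with Ccr2 (0.09) and Cd68 (0.05) and at -0.19 with Cx3cr1.

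The genes outside the members whose levels followed them most closely were listed by r over the same 64 libraries, among 12212 genes and without a test. For the C1q chains these were Ctss (a lysosomal protease, r = 0.887), Spi1 (which encodes PU.1, 0.879), Pld4 (0.872), Cotl1 (0.865) and Unc93b1 (0.864). For Ccr2 they were Mpeg1 (0.664), Cd53 (0.658), Cybb (a subunit of the phagocyte NADPH oxidase, 0.638) and the MHC class II genes H2-Aa (0.635) and H2-DMb1 (0.632). For the mean of Lyve1 and Cd163 they were Ccl6 (a chemokine, 0.769), Man2a1 (0.733), Gfpt2 (0.726), Entpd1 (0.713) and Slc43a3 (0.712). No gene was in more than 1 of these 3 lists. The r of these lists were not recomputed without the farthest hearts. TG HIIT M 4 and TG Sed M 5 were each the highest of their group in Ccr2 and in the summed MHC class II genes.

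Related genes were counted in the TG effect averaged over sexes and training, where 18.5% of all genes were higher and 20.5% lower. Among ligands, Csf1, which feeds CSF1R, rose by 0.34 ± 0.04 on the log2 scale (adjusted p = 1.37e-11), while Il34 was at 0.10 ± 0.05. Of 5 chemokine genes, the 4 named above as encoding ligands of CCR2 and CX3CR1 rose: Ccl2 by 0.33 ± 0.13, Ccl7 by 0.46 ± 0.12, Ccl12 by 0.93 ± 0.19 and Cx3cl1 by 0.18 ± 0.04. The last of the list, Ccl8, which is not an established CCR2 ligand in the mouse, was at 0.45 ± 0.20 (adjusted p = 0.0733). Of 13 other resident macrophage genes, 9 rose and 0 fell, such as F13a1 (0.46 ± 0.06) and Cbr2 (0.39 ± 0.05). Of 8 monocyte genes analysed, 4 rose and 0 fell, Itgam by 0.44 ± 0.06 and Vcan by 0.42 ± 0.08, while Ly6c2, a defining gene of classical monocytes, was at 0.23 ± 0.13. All 16 other pan-macrophage genes rose, among them Adgre1 (the F4/80 antigen, 0.49 ± 0.06) and Trem2 (a lipid-sensing receptor, 0.79 ± 0.10). The list medians on the log2 scale were 0.28 for resident, 0.22 for monocyte and 0.38 for pan-macrophage genes, beside 0.01 over all genes.

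In the same averaged effect, complement genes beyond C1q moved the same way, and antigen presentation genes did not pass. All 9 of the classical complement and regulator list rose, with C3, the central component, at 0.53 ± 0.07 and C1s1, a protease of the C1 complex, at 0.39 ± 0.05. Of 7 MHC class II genes, 0 passed in edgeR and 0 had an unadjusted p under 0.05, with values from -0.07 (H2-Eb1) to 0.14 (H2-DMa). The average covers strata that differed. In trained females Ciita passed as higher (0.41 ± 0.15, adjusted p = 0.0475 in edgeR). Between sedentary females and males, the TG effect of these genes differed by -0.31 (Ciita) to -0.62 (H2-Aa), and none passed. Of 6 haemoglobin and iron genes, 2 rose: Hmox1, the enzyme that breaks down haem, by 0.64 ± 0.07, and Ftl1, the ferritin light chain, by 0.35 ± 0.04. Of 7 lipid-associated macrophage genes, 4 rose, with Trem2 and Lgals3 (0.44 ± 0.11) at the smallest p, and Lpl, which heart muscle also makes, fell by 0.19 ± 0.03. In sedentary males, where the members moved most, 15 of 16 pan-macrophage, 11 of 13 resident and 8 of 9 complement genes rose, beside 9.39% of all genes. In sedentary females these counts were 0 of 16, 1 of 13 and 0 of 9, beside 1.58% of all genes. The difference between the sexes was tested gene by gene, and edgeR called 0 of all genes, as given above.

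Markers of other cells that a heart holds moved as well in the averaged TG effect. All 5 fibroblast genes rose, Dcn by 0.34 ± 0.05 and Pdgfra by 0.28 ± 0.04, and their summed level had a median of 489.6 CPM in nTG Sed M (427 to 603) and 693.5 CPM in TG Sed M (492.7 to 781). Of 5 cardiomyocyte genes, 4 fell, Myh6 by 0.16 ± 0.03 and Pln by 0.17 ± 0.04, from a median sum of 54200 CPM in nTG Sed M (49960 to 59540) to 45630 CPM in TG Sed M (43880 to 53160). Of the lymphatic endothelial genes, which bear on Lyve1, 1 of 6 rose (Pdpn, 0.25 ± 0.07) and 1 fell (Prox1, -0.11 ± 0.03), and their sums overlapped (256 to 283 CPM in nTG Sed M, 224 to 277 in TG Sed M). Among endothelial genes 2 of 5 fell (Cdh5 and Tek). Of the mural, T cell, B cell, mast cell, adipocyte and Schwann cell genes analysed, 0 passed in edgeR and 2 had an unadjusted p under 0.05 (Myh11 and Cpa3). Of 4 neutrophil genes 1 fell (S100a9), 1 of 4 dendritic cell genes (Clec9a) and 1 of 2 mesothelial genes (Wt1) rose, and 3 of 5 red blood cell genes fell. The 4 T cell genes summed to 1.41 to 3.12 CPM in nTG Sed M and 2.07 to 4.203 CPM in TG Sed M, and none of them was at 0 in any library. The part of these shifts in the members' result was not tested.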

How the data were processed

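Ribosome-depleted total RNA of 64 hearts was sequenced, per the labels' protocols. The authors deposited counts per gene, named by Ensembl identifier, and expected counts per lncRNA transcript, neither normalized. The submitters' processing notes name cutadapt 2.3, FastQC 0.11.8, MultiQC 1.7, STAR 2.7.8a, RSEM 1.3.3 and GRCm38/mm10, without their roles. Symbols and positions came from GENCODE M21 (16879 of 16913 identifiers matched). The lncRNA values served only to join columns: Pearson's r of centred log2 CPM (pseudocount 0.5) over autosomal transcripts with a mean of at least 20 counts. The 64 joined gene columns also ascend in number within each sex, in 31 of 31 steps.

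Counts were fitted with edgeR 4.0.16 (TMM, 1 mean for each of 8 groups, quasi-likelihood F test), and p-values were adjusted over all 16913 genes, all of which filterByExpr kept. Printed CPM use TMM-scaled library sizes. Fold changes are differences between groups on the log2 scale. The members, lists and comparisons were chosen with earlier results of these data known. The rule named all members in every comparison. Values are given for all 10 in the TG effects and, in the other comparisons, for those that passed or came closest, with the rest as counts or ranges. From each list it named up to 2 rising and 2 falling genes of smallest p in the averaged TG effect, and from each correlation the 5 closest genes. Other genes of the lists were named after their values were seen. Alternatives were DESeq2 1.42.0, limma 3.58.1 (voom with quality weights), other size factors, no filter, columns by name, the library number, a replicate block, fewer groups, 3 libraries left out for high blood genes in an earlier look and each library left out in turn. In a simulated comparison of sedentary males with 200 of 16913 genes changed by 0.5 on the log2 scale, 69.5% were recovered, with 5 false among 144 calls. The changed genes had a mean of at least 20 counts, and genes were simulated independently of each other. The real comparison called 3488 genes, so these rates need not carry over to it. No 2 hearts of a group agreed within sampling noise (chi-square per degree of freedom at least 9.19 over 229 pairs). The labels name the replicates as biological ones.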

Additional observations from a re-analysis of the deposited data

Results flagged for a closer look

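Each member's CPM was screened in each of the 8 groups for a heart far from the rest of its group, by its gap to the nearest heart as a share of the group's range. In 80 such screens of 1 gene in 1 group, 14 values stood out, from 5 hearts. Chance would give about 1 in 20, or 4, if the genes were independent, which they are not.

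TG HIIT M 4 accounted for 7 of them, each as the highest heart. It had 13.3 CPM of Cd68 (6.94 to 9.18 in the other 7), 65.1 of C1qa (34.8 to 47.6), 59.1 of C1qb (29.9 to 40.7) and 56.3 of C1qc (30.9 to 42.9). It had 89.6 CPM of Csf1r (55.3 to 66.5), 5.21 of Ccr2 (1.99 to 2.67) and 13.3 of Cx3cr1 (3.65 to 6.23). Its Lyve1 and Cd163, the resident markers, were within the criterion. Beyond the members, its MHC class II genes summed to 355 CPM (121 to 169 in the others), its fibroblast genes to 943 (505 to 656) and its cardiomyocyte genes to 39768 (46925 to 55436).

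TG HIIT F 3 was the highest of its group, with 40.2 CPM of Lyve1 (16.8 to 24.9 in the other 5), 62.7 of C1qb (38.6 to 47.1) and 62.6 of C1qc (40 to 45.1). Its resident macrophage genes beyond the members summed to 671 CPM (541 to 587), its B cell genes to 9.84 (1.13 to 1.4) and its red blood cell genes to 610.1 (344 to 450). TG Sed F 7 was the lowest of its group, with 32.8 CPM of C1qa (47.7 to 55.4 in the other 7) and 27.1 of C1qb (39.8 to 50.4). In nTG HIIT F 2, Cd68 was at 12.7 CPM (6.85 to 9.03 in the other 9). In nTG Sed F 6, Cd163 was at 27.2 CPM (15 to 18.3 in the other 7).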

How the results depend on the processing

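The join of columns decides the results. With columns by name, 0 members passed in TG against nTG sedentary males, trained males, trained females and the mean, 0 in trained against sedentary TG males and in females against males, 1 in trained nTG males and 9 in the training mean. These log2 fold changes reversed with columns by name: Lyve1 -0.039 and Cd163 -0.21 in sedentary males, Mrc1 -0.14, C1qb -0.10 and Csf1r -0.11 in trained males, Cd68 0.088, C1qa 0.12, C1qb 0.13, C1qc 0.12 and Csf1r 0.12 in trained TG males, Lyve1 -0.37 in females against males, and Csf1r 0.26 and Cx3cr1 0.33 in the training mean.

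With joined columns no direction of a called member reversed. In trained males, 7 members passed with DESeq2, 7 with the library number and 7 without TG Sed M 5, TG Sed F 2 and TG HIIT F 3, in place of 4. None of these 3 libraries, left out for high blood genes in an earlier look, is in the trained male groups. In trained females 1 passed without them, in place of 5, as without TG HIIT F 3 alone. The red blood cell sum of that heart, 610.1 CPM, lies within the 576.3 to 800 CPM of nTG HIIT F. In trained TG males, 3 passed when only the groups compared were fitted, in place of 5, and in trained TG females 1 in place of 0. limma voom called 1 member in sedentary females, 1 each for training in TG and nTG females, 1 for genotype by training in males, 3 for training by sex and 2 in females against males. The library number left 0 in females against males and 1 in the training mean. Median-of-ratios size factors and no filter moved no count of called members by over 1.5 times.

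Replicate numbers did not pair the hearts (median correlation of deviations 0.013 over 87 same-numbered pairs, 10 of them over 0.1). With the number as a block, 1 member passed in trained females and 2 in females against males, and no other count moved by over 1.5 times.

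With 1 library left out, members called ran from 8 to 10 in sedentary males, 2 to 7 in trained males, 1 to 6 in trained females, 4 to 6 in trained TG males, 0 to 1 in trained nTG females, 0 to 4 for training by sex, 0 to 2 in females against males and 1 to 2 in the training mean. In trained nTG females, 1 member passed without nTG Sed F 2, 6 or 8, or nTG HIIT F 4 or 8. The lone call in females against males became 0 without any of nTG Sed M 1, 2, 3, 4, 6 or 7 or nTG Sed F 1, 3, 4, 5 or 6. The count stayed at 10 in the TG mean and at 0 in the rest.

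Counts over all genes moved too: 1269 with limma voom in sedentary females (739 in edgeR), 300 for genotype by training in males, 927 (DESeq2 166) for training by sex, 1684 in the training mean (673), and 95 with DESeq2, 100 with limma voom and 3 with the block for training in nTG females (25). By name, 0 genes passed in each TG against nTG comparison, 132 for training in nTG males and 2857 in the training mean. Ccr2, with 48 to 265 counts, and Cx3cr1 limit what can be said of recruited cells, and groups of 6 to 10 hearts limit all comparisons.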

Other observations

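The summed level of the 10 members ordered the groups. TG Sed M was highest, with a median of 346.3 CPM (250 to 415), followed by TG Sed F with 300.2 (235 to 366), TG HIIT F with 297 (267 to 408) and TG HIIT M with 274 (236 to 407). The nTG medians were 254 in Sed F, 253 in HIIT F, 221 in HIIT M and 219 in Sed M. Neighbours in this order overlapped in range, and no test was made of the sum.

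Related lists in the trained hearts, not described above, were counted in the same way. In trained males, 11 of 16 pan-macrophage, 8 of 9 complement and 5 of 13 resident macrophage genes were higher in TG than in nTG hearts, where 5.65% of all genes were higher. In trained females, 9 of 16, 3 of 9 and 5 of 13 were higher, where 5.37% of all genes were. In trained against sedentary TG males, 2 of 16 pan-macrophage, 0 of 9 complement and 3 of 13 resident macrophage genes were lower in edgeR, where 7.6% of all genes were. Trem2 is held by both the pan-macrophage and the lipid-associated list.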
